A study of Mus musculus with 2 samples.

Results

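The inflammatory cytokine genes and Irg1 are a set of 10 genes, of 27962 gene names on the array, that were followed in the liver of apoE-KO mice given normal chow or the high-Chol diet. They were picked by name, with their diet differences in these arrays already known: Irg1 (now Acod1), Il1a, Il1b, Il1rn, Il18, Tnf, Il6, Il10, Tgfb1 and Csf1. Their diet differences are therefore given as a description, without a test. Both groups were male C57BL/6 mice that lacked apoE. From 10 weeks of age they received normal chow or that chow with 1.25% Chol for 1 week, and each diet was measured on 3 one-colour arrays from independent experiments. How many mice stand behind each array is not given in the sources used here, so the spread between arrays is the only error that could be estimated.

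Each array reads Cy3-labeled cRNA of whole liver as the brightness of spots that carry a 60-base probe. Values are log2 of the background-subtracted signal relative to the 75th percentile of the same array, so that 0 is a probe brighter than most and a difference of 1 is a 2-fold change in signal. A probe counted as well above background when the scanner software flagged it so in at least 0.5 of its spots on that array. The 3 chow arrays and 1 high-Chol array lay on slide 1 and the other 2 high-Chol arrays on slide 2, and the 75th percentile was 271 to 325 intensity units on chow and 373, 799 and 762 under the high-Chol diet. Slide 2 therefore held no chow array, so that its slide and diet cannot be told apart, and within slide 1 a difference rests on a single high-Chol array. The label of the tissue was checked with Alb, the gene of serum albumin, whose level was 9.52 ± 0.10 on chow and 9.18 ± 0.17 under the high-Chol diet (SD, n = 3 each). The Apoe probe gave a signal of 1.66 to 3.81, well above background throughout, and since its place relative to the disrupted part of the gene is not given in the sources used here, it does not check the genotype.

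Inflammatory cytokines are secreted proteins by which macrophages and other cells signal injury or infection. IL-1 alpha and IL-1 beta bind the same IL-1 receptor and activate NF-kB, and the product of Il1rn occupies that receptor without signalling. TNF also activates NF-kB through its own receptors, IL-6 drives the acute-phase program of hepatocytes, IL-10 and TGF-beta 1 restrain macrophages, and CSF1 keeps macrophages alive. Irg1 is not a cytokine. It encodes the mitochondrial enzyme of activated macrophages that makes itaconate from cis-aconitate. In liver these genes are associated with Kupffer cells, the resident macrophages, and with monocytes and neutrophils that enter the tissue.

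The 10 genes were read by 13 probes, and Irg1, Il1a and Il1rn had a pair of probes each. The pair for Irg1 is shown first because it carried the largest measured difference and because its probes are not independent: they share 40 of their 60 bases. The first 30 bases of each are given 5′ to 3′, with shared bases in capitals.
A_51_P123625: agacagtttgacttggggtgGTGAACAGTG
A_51_P123630: GTGAACAGTGTGGCATAAGACCCAAGGTTT
The array annotation places them on the plus strand at chr14:97488885-97488945 and chr14:97488905-97488965 of mm7, and whether that stretch is coding or UTR is not given in the sources used here. The pair for Il1rn shared no bases, and its first 30 bases are shown because the probes differed widely in brightness.
A_52_P431159: tttcttgaccattcattttatcacttctaa
A_51_P307166: attgctgggtacttacaaggaccaaatatc
The brighter lies at chr2:24357916-24357975 of mm7, and the dimmer spans chr2:24354826-24355846, which is 1021 genomic bases for a 60-base probe. One Il1a probe, A_51_P438283, likewise spans 1735 bases, and that of Il18 spans 2129 bases.

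The stretch just upstream of the start site is shown for the members whose promoters hold a TATA box and for Il6, whose promoter holds an NF-kB match. Each is 150 bases from RefSeq on GRCm38.p6, 5′ to 3′ on the strand of the gene and ending at the base before its start site. Capitals mark TATAAA in the first 4, the letters TGACTCA as well in Il1a, and the NF-kB match in Il6.
Irg1, chr14:103046862-103047011, plus strand: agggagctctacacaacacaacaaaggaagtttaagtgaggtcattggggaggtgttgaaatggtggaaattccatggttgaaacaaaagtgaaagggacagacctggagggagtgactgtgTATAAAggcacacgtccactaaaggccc
Tnf, chr17:35202008-35202157, minus strand: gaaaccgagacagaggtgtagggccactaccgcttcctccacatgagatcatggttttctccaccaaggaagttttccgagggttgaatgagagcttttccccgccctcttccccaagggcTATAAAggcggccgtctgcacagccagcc
Il1b, chr2:129371140-129371289, minus strand: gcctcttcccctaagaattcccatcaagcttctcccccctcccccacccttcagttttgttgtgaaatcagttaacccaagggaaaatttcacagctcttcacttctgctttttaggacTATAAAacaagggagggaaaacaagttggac
Il1a, chr2:129309973-129310122, minus strand: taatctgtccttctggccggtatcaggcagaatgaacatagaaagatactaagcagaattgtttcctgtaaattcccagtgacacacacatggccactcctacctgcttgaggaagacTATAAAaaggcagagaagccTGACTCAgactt
Il6, chr5:30012964-30013113, plus strand: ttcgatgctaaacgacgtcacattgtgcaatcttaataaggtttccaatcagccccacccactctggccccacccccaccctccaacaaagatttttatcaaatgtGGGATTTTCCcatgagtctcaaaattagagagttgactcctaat

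Within 250 bases upstream, TATAAA on the strand of the gene was found for 4 of the 9 members with a window, against 7.59% of 32851 promoter windows of the same length. It began 28 bases before the start site of Irg1, 29 before that of Tnf, 31 before that of Il1b and 32 before that of Il1a. These 4 are among the 5 members with the largest measured diet differences. Il1rn, the remaining one of those 5, has 3 start sites in RefSeq and no TATAAA in any of their windows. The NF-kB consensus, searched on both strands, was matched in Il6, 44 bases before the start, in Tgfb1 and in Csf1, and in 7.25% of all windows. TGANTCA, the AP-1 element, which is its own reverse complement, was matched in Il1a, Il1rn and Il6 and in 6.75% of all windows. A match of letters describes the sequence and does not show that a factor binds there.

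Of the 10 genes, 8 were higher on every high-Chol array than on every chow array: Irg1, Tnf, Il1rn, Il1b, Il1a, Il6, Csf1 and Tgfb1. In Il18 and Il10 the diets overlapped. The same held for 11 of the 13 probes. Over all genes with a value on every array, 11.9% had all high-Chol arrays above all chow arrays. The 8 genes were also those higher by more than 1.5-fold, which 15.4% of 16726 genes were, and 0 of the 10 were lower by that much, against 5.84% of genes. Since the members were chosen on these differences, nothing is read from the counts. The median difference over the members was 1.5 (log2), beside -0.02 over all genes, and on slide 1 alone it was 1.06 with 7 members past 1.5-fold. Background handling mattered for the dim members. With a normexp background in place of the subtraction of the scanner software, Il1a, Il6 and Tnf turned to -0.0679, -0.0737 and -0.19, in a fit that gave a background mean of -126 to -1061 intensity units on 3 arrays. When spots of outlying local background were kept out of that fit, the 8 genes were all higher, by 0.32 for Tnf to 2.27 for Irg1, and 4 of them by more than 1.5-fold.

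**Figure D1:**
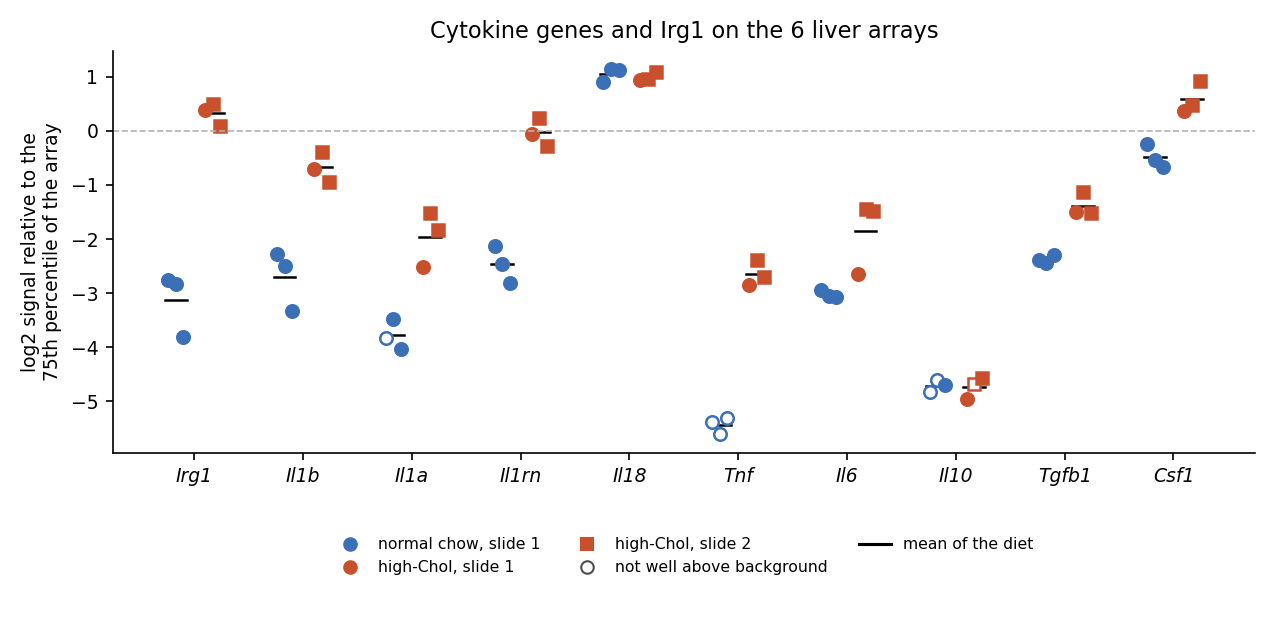
Level of each member on the 6 arrays, as log2 signal relative to the 75th percentile of the array (brightest probe of the gene, circles for slide 1 and squares for slide 2, open symbols where the probe was not well above background, bars for the mean of each diet of 3 arrays). The diets are apart in 8 genes and overlap in Il18 and Il10. Heights of different genes are not comparable, since they come from different probes.

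Irg1 had the largest measured difference of the 10, though that of Tnf is only a bound. Its first probe, well above background on all 6 arrays, read -2.76, -2.83 and -3.82 on chow and 0.39, 0.50 and 0.09 under the high-Chol diet. All high-Chol arrays stood at least 2.84 above the highest chow array, and the array of slide 1 lay between those of slide 2. The difference was 3.46 ± 0.33 (SE, n = 3 arrays per diet), which is 11-fold, and 3.52 within slide 1. The overlapping second probe read -3.67, -3.11 and -4.43 on chow, where 2 of 3 arrays were well above background, and 0.12, 0.50 and -0.06 under the high-Chol diet. Its difference was 3.92 ± 0.37 (SE).

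The genes around itaconate did not share the size of that difference. Of 10 genes for citric acid cycle enzymes (with the succinate-CoA ligases that handle itaconyl-CoA), the itaconate-degrading lyase Clybl, citrate and oxoglutarate carriers and the electrophile-sensing factors Nfe2l2 and Atf3, 1 was called higher by limma and 0 lower. The called gene was Atf3, a stress-induced transcription factor, with a difference of 2.15 ± 0.32 (SE) and a limma adjusted p of 0.0207. The median of the list was -0.20, and Nfe2l2, at 0.52 ± 0.18 (SE), did not pass the test (limma adjusted p 0.182).

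In the IL-1 family, both agonists and the antagonist were higher under the high-Chol diet. Il1b, with 10 spots per array, read -2.27, -2.50 and -3.32 on chow and -0.70, -0.38 and -0.94 under the high-Chol diet. The chow array at position 3 was the lowest, as it was for Irg1, and the diets were 1.33 apart at their closest. The difference was 2.02 ± 0.33 (SE, n = 3 per diet), or 4.07-fold, and 2.00 within slide 1. Il1rn, by its brighter probe, read -2.13, -2.46 and -2.81 on chow and -0.05, 0.24 and -0.28 under the high-Chol diet. The diets were 1.85 apart at their closest, and the difference was 2.44 ± 0.26 (SE), or 5.42-fold, and 2.41 within slide 1. The dimmer Il1rn probe was not well above background on any chow array, so it gives only a bound of at least 1.37-fold. For such a bound, chow was given the lowest signal that any probe well above background had on that array, or the probe's own signal where that was higher.

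Il1a was dimmer and less evenly raised. Its first probe read -3.84, -3.47 and -4.04 on chow, where the array at position 1 was not well above background, and -2.52, -1.51 and -1.84 under the high-Chol diet. The high-Chol array of slide 1 was the lowest of its diet but still above all chow arrays. The difference was 1.82 ± 0.32 (SE, n = 3 per diet), or 3.54-fold, and 1.27 within slide 1. The other Il1a probe, which shares no bases with it, differed by 2.05 ± 0.30 (SE) and by 1.63 within slide 1. Il1b and Il1a differed by similar amounts: on the same array their log2 ratio changed by -0.20 between the diets, with an SD of 0.44 on chow and 0.48 under the high-Chol diet. The log2 ratio of Irg1 to Il1b went from a range of -0.49 to -0.34 on chow to one of 0.88 to 1.08 under the high-Chol diet, so Irg1 changed more. The ratio of Il1rn to Il1b was 0.15, 0.04 and 0.51 on chow and 0.64, 0.62 and 0.67 under the high-Chol diet, a change of 0.41 beside an SD of 0.25 on chow.

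Il18, the remaining IL-1 family ligand, showed no separation of the diets. It read 0.90, 1.14 and 1.12 on chow and 0.93, 0.96 and 1.09 under the high-Chol diet, well above background throughout. The high-Chol values all lay inside the chow range, and the difference was -0.06 ± 0.18 (SE, n = 3 per diet). Il18bp, whose secreted product binds and blocks IL-18, was called higher, by 1.04 ± 0.15 (SE, limma adjusted p 0.0187), whereas the receptor genes Il18r1 and Il18rap were too dim to be tested.

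Of the genes that process and release these ligands, 9 of 12 were kept, 2 were called higher and 0 lower. P2rx7, the ATP-gated channel upstream of inflammasome activation, differed by 1.05 ± 0.19 (SE, limma adjusted p 0.0351). Thbs1, which activates latent TGF-beta, was not well above background on chow and was at least 1.63-fold higher. It passed the filter on dim probes only through the high-Chol arrays, so its call is not a free test and its p is not given, as for other such genes. Casp1, the protease that cleaves the IL-1 beta and IL-18 precursors, differed by 0.80 ± 0.18 (SE) without passing the test (limma adjusted p 0.0768). Nlrp3, an inflammasome sensor, was well above background on 2 of 3 chow arrays and was not called, with a difference of 1.63 ± 0.69 (SE) over all arrays and -0.11 within slide 1, so its higher level came from the slide 2 arrays.

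**Figure D2:**
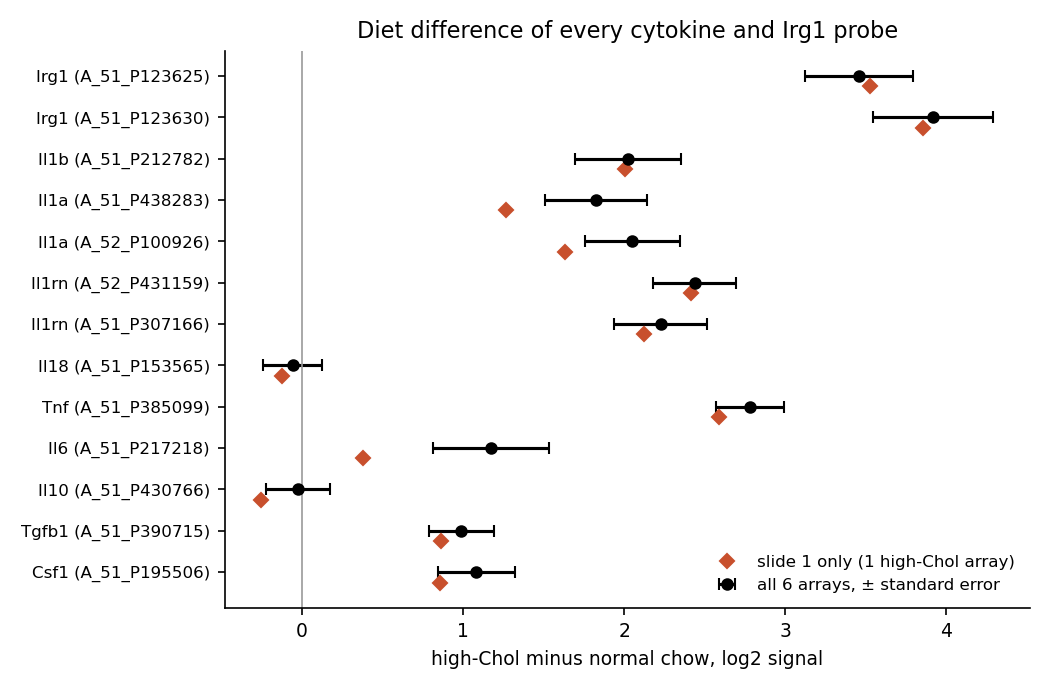
High-Chol minus normal chow difference in log2 signal for every probe of the 10 genes (circles with SE over 6 arrays, diamonds for slide 1 alone with its single high-Chol array). The diamonds of Irg1, Il1b, Il1rn, Tnf, Csf1, Tgfb1 and Il18 lie within the error of the circles, and those of Il1a, Il6 and Il10 lie outside it. That of Il6 lies lowest among the 8 genes that separated the diets, at 0.38 against 1.17.

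Tnf was above background only under the high-Chol diet. Its probe read -5.38, -5.61 and -5.30 on chow, not well above background on any of these arrays, and -2.84, -2.40 and -2.71 under the high-Chol diet, well above background on all. The measured means were -5.43 ± 0.16 and -2.65 ± 0.23 (SD, n = 3 each), and because the chow level is a bound, Tnf was at least 3.74-fold higher. Within slide 1 the measured difference was 2.59. The TNF receptor genes did not pass the test: Tnfrsf1a differed by 0.24 ± 0.15 and Tnfrsf1b by -0.18 ± 0.32 (SE, limma adjusted p 0.374 and 0.749).

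Il6 separated the diets narrowly. It read -2.95, -3.05 and -3.08 on chow and -2.65, -1.44 and -1.47 under the high-Chol diet. The array of slide 1 stood 0.30 above the highest chow array, and both arrays of slide 2 stood more than a log2 unit above it. The difference was 1.17 ± 0.36 (SE, n = 3 per diet) and only 0.38 within slide 1. The genes of the IL-6 receptor did not pass the test, with -0.78 ± 0.25 for Il6ra and -0.19 ± 0.16 for Il6st (SE, limma adjusted p 0.157 and 0.493).

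The Il6 value also depended on where its spots lay. The probe was printed 10 times on each array, and the SD among its spots was 0.65 to 0.92, where the median over probes with 10 spots that were well above background was 0.08 to 0.15. On slide 2 the 3 spots in array rows 8 to 188 averaged -2.49 and -2.64, and the 7 spots in rows 294 to 478 averaged -0.99 and -0.97. That gap of -1.50 and -1.67 was the lowest of 156 probes with 10 spots on both arrays, whose medians were 0.01 and 0.01. On slide 1 the gap of these averages ran the other way, from 0.51 to 1.38. There the 7 spots scattered, on the high-Chol array from 27.0 to 82.4 intensity units, beside 72.7 to 79.5 for the 3 spots. On the chow array at position 1 all 7 lay lower, at 15.4 to 43.1 beside 61.8 to 79.6. Over the 3 spots the diets differed by -0.09, and over the 7 spots by 1.71. This split was made after the values were seen. Tnf showed a smaller gap on slide 2, of -0.42 and -0.53, and its part in the Tnf difference was not tested.

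**Figure D3:**
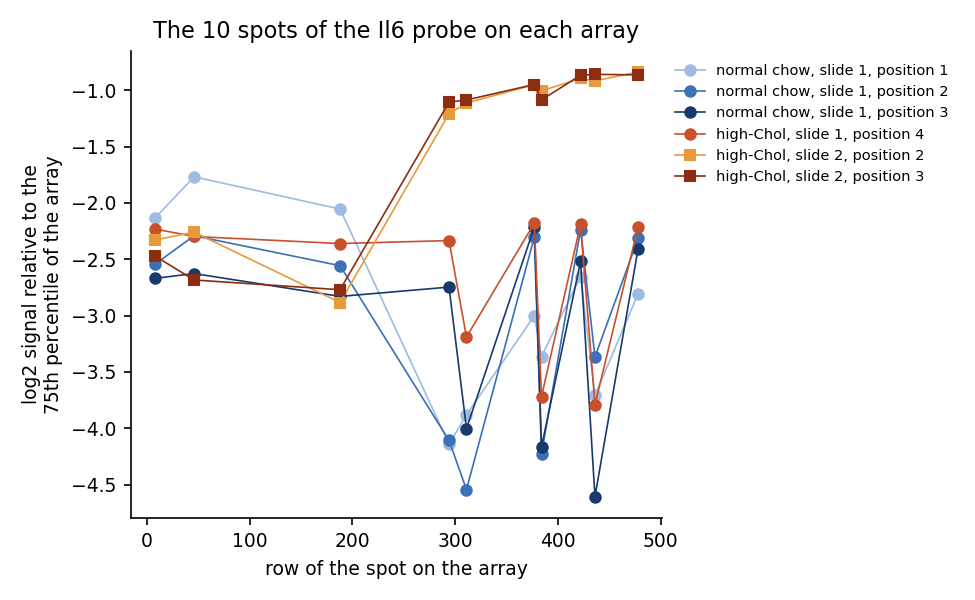
The 10 spots of the Il6 probe on each array, as log2 signal relative to the 75th percentile, against the row in which the spot was printed (blue for normal chow, orange to brown for the high-Chol diet, squares for slide 2). In the first 3 spots the diets lie together, and in the 7 further spots the arrays of slide 2 lie near -1 while those of slide 1 scatter between -2.18 and -4.61.

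Genes listed as IL-6 acute-phase targets varied among themselves, and whole liver does not show which cells their signal comes from. Of 14 acute-phase genes 1 was called higher and 0 lower, with a list median of -0.14. The called gene was Lcn2, the iron-scavenging lipocalin, at 4.03 ± 0.34 (SE, limma adjusted p 0.00529). Saa1, Saa2 and Saa3, the serum amyloid A genes, differed by 2.43 ± 0.61, 2.41 ± 0.69 and 2.93 ± 0.58 (SE) and did not pass (limma adjusted p 0.1002, 0.129 and 0.0504). Saa1 and Saa2 are near-identical, so their probes may read both. The fibrinogen genes Fga, Fgb and Fgg stood at -0.72, -0.41 and -0.45 and were not called, and within slide 1 Fga stood at 0.10.

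Il10 was near background. It read -4.83, -4.60 and -4.70 on chow and -4.96, -4.68 and -4.57 under the high-Chol diet, and was well above background on 1 chow and 2 high-Chol arrays, so it failed the filter on dim probes. The diets overlapped, with a difference of -0.03 ± 0.20 (SE, n = 3 per diet). Its receptor gene Il10rb was called higher, by 1.16 ± 0.20 (SE, limma adjusted p 0.0344), and Il10ra differed by 0.82 ± 0.18 (SE) without passing the test (limma adjusted p 0.0646).

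Tgfb1 and Csf1 were higher by smaller amounts. Tgfb1 read -2.38, -2.44 and -2.29 on chow and -1.51, -1.12 and -1.51 under the high-Chol diet. The diets did not overlap, and the difference was 0.99 ± 0.20 (SE, n = 3 per diet), or 1.98-fold, and 0.86 within slide 1. Csf1 read -0.25, -0.53 and -0.67 on chow and 0.37, 0.49 and 0.93 under the high-Chol diet. The diets were 0.62 apart at their closest, and the difference was 1.08 ± 0.24 (SE), or 2.12-fold, and 0.86 within slide 1. In order of difference, Il6, Csf1 and Tgfb1 are neighbours whose values lie within the SE of one another, and so do not differ beyond their error. The same holds of Il1b and Il1a.

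The receptors of these ligands did not pass the test either: Tgfbr1, Tgfbr2 and Csf1r differed by -0.03 ± 0.24, -0.08 ± 0.20 and 0.28 ± 0.18 (SE, limma adjusted p 0.949, 0.837 and 0.378), and Tgfbr3 was too dim to be tested. For IL-1, Il1r1 differed by -0.88 ± 0.32 and Il1rap by 0.00 ± 0.17 (SE, limma adjusted p 0.194 and 0.991). The decoy receptor gene Il1r2 was not well above background on chow, with a bound of at least 1.06-fold. Its diets overlapped and it was not called. In the whole list of receptors and decoys, Il18bp and Il10rb were the 2 of 14 genes kept that were called higher, 0 were lower and the median was 0.12. Of 11 TGF-beta response genes 2 were called higher and 0 lower, with a median of 0.16. Among them was Col1a1, which encodes a chain of type I collagen, at 1.04 ± 0.17 (SE, limma adjusted p 0.0257).

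NF-kB, which the IL-1 and TNF receptors activate, has its own list of response genes, and most of them were called. Like the other lists, it was drawn up with earlier results of these data known, so nothing is read from its share. Whether the members raised these genes was not tested. Of 10 kept, 9 were called higher and 0 lower, with a median of 2.27. Of the 9, 4 passed the filter through the high-Chol arrays alone, and of the 6 genes well above background on every chow array 5 were called, where 2.05% of all such genes were. With slide as a block 1 of the 9 passed, Ccl4, although all 9 were higher by more than 1.5-fold within slide 1. Over all genes 2.69% were called higher and 0.227% lower. The 4 with the largest measured differences were chemokine genes, 2 of them with a chow level that is only a bound. Ccl2, which recruits monocytes, differed by 5.06 ± 0.47 (SE, limma adjusted p 0.00626). Ccl4, well above background on 2 of 3 chow arrays, differed by 4.13 ± 0.25 (SE). Ccl3 and Cxcl2 were not well above background on chow and were at least 10.4-fold and 2.40-fold higher.

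Next come the genes that carry the signal. Of 27 signal transducers kept, 4 were called higher and 0 lower, with a median of 0.20. These were Relb, an NF-kB subunit, at 1.80, Spi1 and Irf8, myeloid transcription factors, at a measured 1.22 and at 1.1, and Irak3, an inhibitor of IL-1 receptor signalling, at 0.95. Relb and Irf8 were well above background on every chow array (limma adjusted p 0.0165 and 0.0471), while Spi1 and Irak3 were so on 1 and 2 of 3 chow arrays and entered through the high-Chol arrays. Of 13 feedback inhibitors 3 were called higher and 0 lower, with a median of 0.33. They were Tnfaip3, which encodes the ubiquitin-editing protein A20, at 2.27, and the IkB family genes Nfkbiz and Nfkbie at 1.34 and 1.24 (limma adjusted p 0.00639, 0.00913 and 0.0155). Of 13 other cytokine genes kept from a list of 21, 2 were called higher and 0 lower, with a median of 0.51. Ltb, a TNF family ligand, differed by 1.85 ± 0.24 (SE, limma adjusted p 0.0123), and Ifng was not well above background on chow and was at least 1.40-fold higher.

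Over all pathway lists, 26 of 121 genes kept were called higher and 0 lower, of which 9 passed the filter through the high-Chol arrays alone. Of the 107 well above background on every chow array, 17 were called higher. Without adjustment, a limma p under 0.05 was reached by 46 genes that were higher and 9 that were lower, beside 12.3% and 8.83% of all genes. The median difference was 0.28. All 26 were higher by more than 1.5-fold within slide 1 too, whose arrays also entered the calls, but with slide as a block 2 passed, of 11 over all genes, neither of them well above background on every chow array. Calls rose and fell across the whole array when single arrays were left out. The count fell to 6 when the chow array at position 2 was left out, to 14 for that at position 3, and to 9 and 14 for the slide 2 arrays at positions 2 and 3, where the calls over all genes fell from 450 to 42, 168, 103 and 151. It was 19 when the chow array at position 1 was left out, with 239 over all genes. Leaving out the high-Chol array of slide 1 gave 46, with 2312 over all genes, and put each diet on a slide of its own.

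**Figure D4:**
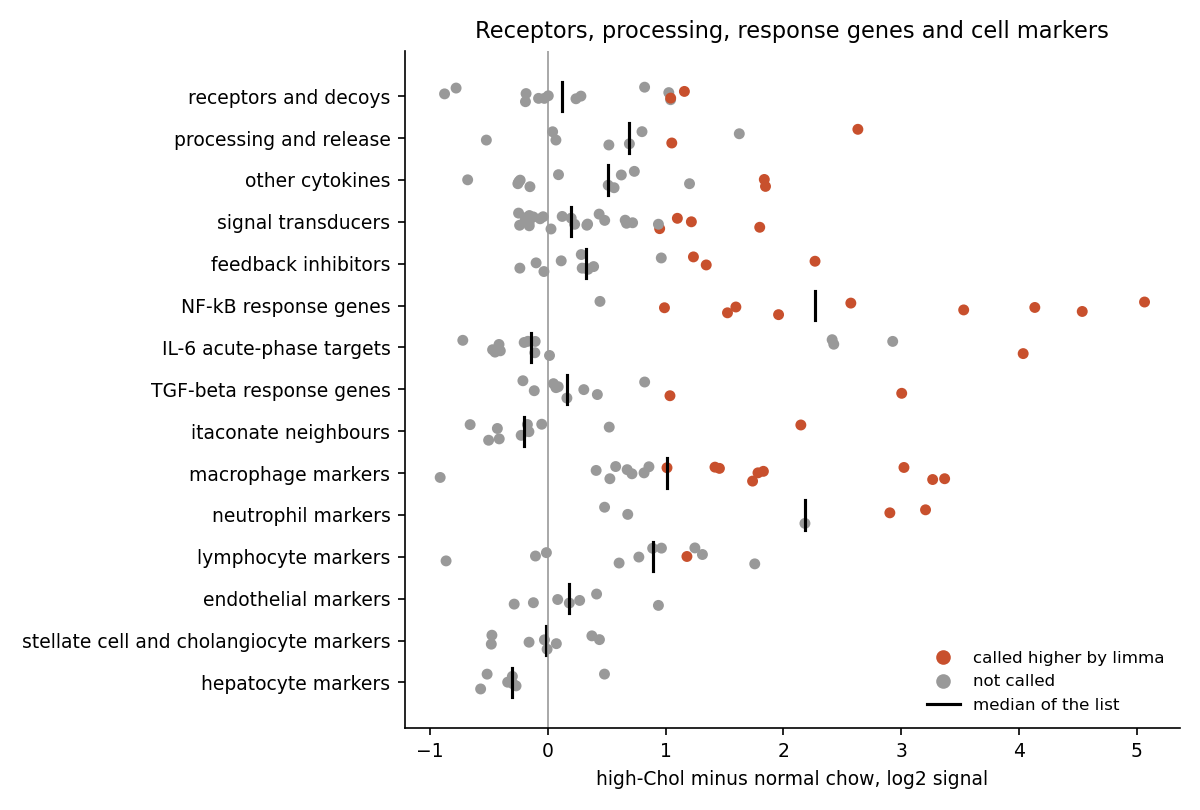
High-Chol minus normal chow difference in log2 signal of every gene kept in the pathway and marker lists (orange points called higher by limma at an adjusted p under 0.05, grey points not called, black bars the median of the list). NF-kB response genes lie furthest right among the pathway lists with a median of 2.27, while hepatocyte markers have a median of -0.30.

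Some markers of macrophages and neutrophils were higher under the high-Chol diet as well, although with slide as a block 0 of the 12 markers called here passed. In whole liver, more RNA per cell and more cells of a type cannot be told apart. Of 17 macrophage markers kept, 9 were called higher and 0 lower, with a median of 1.01, and 7 of the 9 were well above background on every chow array. The 4 with the largest measured differences were those of Trem2, Itgax, Ccr2 and Marco. Trem2 differed by 3.37 ± 0.33 and Marco, a scavenger receptor, by 1.83 ± 0.32 (SE, limma adjusted p 0.00639 and 0.0351). Itgax and Ccr2, the receptor of Ccl2, entered through the high-Chol arrays. They were well above background on 2 and 1 of 3 chow arrays, so their measured 3.27 and 3.02 rest in part on chow signal at background. The signal summed over the 18 markers, in units of the 75th percentile, was 185 to 217 on chow and 445 to 592 under the high-Chol diet. Lyz2 and Cd5l made up 60.3% to 75.3% of it, and whether other cells gave part of their signal was not tested. The rest summed to 65.0 to 78.8 on chow and 142 to 151 under the high-Chol diet. Emr1 was missing on the slide 2 array at position 2. Itgam was not well above background on any array, and Cd163 went the other way, at -0.91 ± 0.28 (SE, limma adjusted p 0.154). The count of 9 fell to 3 and 4 without the high-Chol array at position 2 or 3 of slide 2, and to 4 without the chow array at position 2 or 3.

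Of 5 neutrophil markers kept, 2 were called higher and 0 lower. S100a8 and S100a9, the calprotectin subunits, differed by 3.21 ± 0.28 and 2.90 ± 0.21 (SE, limma adjusted p 0.00552 and 0.00389). The summed signal of the 9 neutrophil markers on the array was 2.13 to 2.39 on chow and 10.5 to 16.8 under the high-Chol diet, and S100a9 made up most of it, at 1.29 to 1.42 on chow and 7.96 to 13.4 under the high-Chol diet. The granule genes Ngp, Elane and Camp were not well above background on any array. The other markers kept, Ltf, Mpo and Csf3r, were not called, with measured differences of 2.18, 0.48 and 0.68. Within slide 1 these were 0.63, 0.03 and 0.37. Of 11 lymphocyte markers 1, Nkg7, was called higher, by 1.18 ± 0.23 (SE, limma adjusted p 0.0493), and the summed signal of the list was 1.32 to 1.61 on chow and 1.90 to 3.18 under the high-Chol diet. No endothelial, stellate cell, cholangiocyte or hepatocyte marker was called by limma (0 of 22, with 1 higher endothelial, 1 lower stellate cell or cholangiocyte, and 1 higher and 1 lower hepatocyte marker at an unadjusted p under 0.05). The summed hepatocyte signal was 2139 to 2231 on chow and 1573 to 1893 under the high-Chol diet. The part of these markers in the differences of the cytokine genes and Irg1 was not tested.

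The genes whose pattern over the 6 arrays came closest to a member were found by the root mean square difference of their log2 values, each taken around its own mean, among 14044 genes well above background on all arrays. Closest to Irg1 were S100a8 at 0.38, S100a9 at 0.45 and Bcl2a1b at 0.49. Closest to Il1b were Ltb at 0.19, A630077B13Rik at 0.23 and Il1rn at 0.25. Closest to Il1rn were Cd83, a surface protein of activated antigen-presenting cells, at 0.14, Bcl2a1b at 0.21 and Tlr2, a receptor for bacterial lipoproteins, at 0.24. Bcl2a1b belongs to a family of near-identical copies, so its probe may read several of them. The values of Irg1 were larger than those of the other 6 members compared.

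The members with smaller differences had nearer neighbours. Closest to Csf1 were Ptplad2 at 0.09, BC013712 at 0.10 and Fcgr3, an Fc receptor, at 0.10. Closest to Tgfb1 were Pea15 at 0.05, Vil2, which encodes ezrin, at 0.07, and Dok2 at 0.07. Closest to Il6 were Rgs10, Tnfsf15 and Tpm2, at 0.08, 0.08 and 0.09. Closest to Il18, which hardly varied, were Cd302, Cutc and Adi1 at 0.02, 0.03 and 0.03. The measure is over 6 arrays that fall into 2 diets, and all genes compared share those arrays and their scaling.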

How the data were processed

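Gene expression was measured in liver of apoE-KO mice on normal chow or the high-Chol diet, 3 one-colour Agilent whole mouse genome arrays per diet. The authors deposited each array's spot intensity values, background-subtracted by Agilent Feature Extraction (9.5 in the file headers of slide 1, 9.1 in those of slide 2 and in the submitters' processing notes) and not normalized between arrays. The authors also deposited log2 values that give each of 23458 probes a single number per diet, normalized and filtered in Gene Spring GX with settings not given in the sources used here. They cover 9 of the 10 members.

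Here the processed signal was divided by the 75th percentile of the non-control spots of its array and log2-transformed. Outlier spots (75 to 196 per array) were left out, saturated spots (0 on 5 arrays, 5 on 1) were kept, and replicate spots of a probe were averaged. Of the spots, 50.5% to 67.2% per array were well above background. A gene was kept when at least 1 diet had its brightest probe well above background throughout, which left 16726 genes. The diet comparison was fitted in R 4.3.3 by lmFit and eBayes of limma 3.58.1, without covariates, and was checked on simulated data. Genes were called at a p of 0.05 after Benjamini-Hochberg adjustment. Standard errors of the members come from the same fit over all 41174 probes. Nothing ties an array to a named animal, so p-values measure only the spread between arrays, and the number of arrays limits the precision.

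The members, gene lists and rule for named genes were chosen with earlier results of these data known. Named were all members with every probe, every called gene of each list or, above 4, the 4 with the largest difference, the receptors of the members, and for each member well above background throughout the 3 genes of most similar profile. Alb, Apoe, Nfe2l2, Casp1, Nlrp3, the Saa and fibrinogen genes, Cd163, Ltf, Mpo, Csf3r and markers without signal were named after their values were seen. Some single genes are not reported here. Of 138 genes in the pathway lists, 137 were matched by array name or accession. Genes carry the names of the array design, probe positions are of mm7, and promoters are RefSeq windows on GRCm38.p6, found for 9 members. The tools were data.table (1.17.8) and pandas 2.3.3 in Python 3.11.15, with matplotlib 3.10.9 for plots. The alternatives were median scaling, quantile normalization, a normexp background (offset 50), other filters on dim probes, outlier spots kept, slide as a block, averaging a gene's probes, leaving out each array, a trended and robust prior, the methods' t-test and the authors' deposited values. A normexp fit without spots of outlying local background, and the Il6 spots by row, were added after seeing the data.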

Additional observations from a re-analysis of the deposited data

How the results depend on the processing

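The median difference of the members (1.5) and their count past 1.5-fold (8 of 10) kept within the spread of the arrays or within 1.5 times under median scaling, quantile normalization, averaging a gene's probes, outlier spots kept and the authors' deposited values. With slide as a block the median was 1.06. Without 1 array at a time it ran from 1.37 to 1.80 and the count stayed at 8. With the normexp background the median was 0.0399, the count 3, and Il1a, Il6 and Tnf turned to -0.0679, -0.0737 and -0.19. In that fit a few spots whose local background exceeded their signal, by up to 65048 intensity units, gave a background mean of -126, -511 and -1061 on 3 arrays, against -0.70 to 5.70 on the other 3. Fitted without spots of over 2 times the median local background (0 to 97 per array), normexp gave a median of 0.44 and a count of 4, with Irg1 at 2.27, Il1rn at 1.53, Il1b at 1.12, Csf1 at 0.94, Il1a at 0.50, Tgfb1 at 0.37, Il6 at 0.35 and Tnf at 0.32. The offset of 50 added to every spot shrinks dim genes by construction. Il6 was -0.0906 over its 3 spots in the first rows and 1.71 over the 7 others. Csf1, Il1b, Il1rn and Irg1 were positive under all 14 alternatives run for them. Tgfb1 was 0.00383 with the planned normexp fit, which is no difference, and positive under the others.

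The 26 pathway genes and 9 macrophage markers called higher became 4 and 1 with no filter, 2 and 0 with slide as a block, 0 and 0 by the methods' t-test after adjustment, and 0 and 0 with the planned normexp fit, but 23 and 13 with the normexp fit added. Calls over all genes went from 450 to 26, 11, 4, 0 and 301 under these settings. Without 1 array at a time they ran from 6 to 46 and from 3 to 12. The pathway genes called lower, 0, ran from 0 to 5, with 5 only when the slide 1 high-Chol array was left out, with 761 called lower over all genes, where diet and slide cannot be told apart. Scaling moved the median of all genes from -0.02 to -0.26 by the median, -0.11 with the planned normexp fit and 0.03 by quantiles. Signal over background limits Tnf on chow, Il10 and Il1a. No paired analysis was possible because, although the labels number 3 replicates of each diet, no array is marked with its number, so a chow array cannot be tied to a high-Chol array. An exact permutation test of 3 against 3 arrays cannot go below p = 0.1.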
